A study of Mus musculus with 133 samples.

Results

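The comparison described here is that of hepatocytes from young male mice (YM) 96 h after partial hepatectomy (PH) with hepatocytes from sham-operated YM killed at the same time. It rests on 6 of the 133 libraries of the series, 3 after PH and 3 after sham surgery, chosen by the sample titles, and it covers all 11048 genes that were tested of the 11049 in the table. All mice were C57BL/6 males of 11 to 14 weeks. PH, done under isoflurane, removed the left and median lobes. Per the labels, the sham operation was a midline opening of the abdomen that was then sutured, also under an inhaled anaesthetic, with no loss of tissue. Hepatocytes were freed by collagenase perfusion and low-speed spins, and each library is bulk RNA of 1 such preparation.

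The libraries compared beside these were 3 after PH and 3 after sham surgery from YM at 52 h, from very old males of 100 weeks (VOM) at 96 h and from young females of 11 to 14 weeks (YF) at 96 h, together with 3 from YM without surgery (NL). The series' design text lists the sham and female libraries as ones used for batch correction. The study describes 3 mice at each time for the YM and VOM libraries after PH and for NL. For the sham and YF libraries the sources used here do not say whether each is a separate mouse, so the spread within those groups may be technical.

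After PH, hepatocytes that normally rest outside the cell cycle re-enter it, copy their DNA and divide, and most do so within the first days in young mice. DNA replication genes lead that wave and the mitotic genes, many of them driven through the CHR and CCAAT elements of their promoters, follow it. The liver also answers surgery itself with the acute phase response, in which cytokines acting through STAT3, NF-kB and C/EBP factors raise secreted proteins such as serum amyloid A. Sex-biased genes of the mouse liver follow the male pulses of growth hormone, and clock genes follow the time of day, so both lists were read alongside the regeneration genes.

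The 6 libraries held 1509365 to 2635855 counts, and the other 21 in the fit held 465548 to 3194370. The titles of PH 2, PH 3, sham 2 and sham 3 carry the label mix 21, that of PH 1 mix 15 and that of sham 1 mix 19. What a mix is was not stated in the sources used here, and it was read as the likely batch. The Y-linked Ddx3y was at 102, 171 and 167 CPM (a library's counts scaled to a common total) in PH 1 to 3 and at 99.8, 205 and 201 CPM in sham 1 to 3, while the YF libraries held at most 1 CPM. Xist, which is transcribed from the inactive X of females, was at 27.4 CPM in PH 1 and at most 2.61 CPM in the other 5, against 137 to 611 CPM in YF. The female-biased A1bg, at 53.8 CPM in PH 1 and at most 3.26 CPM elsewhere, and Sult2a1, at 41.5 CPM and at most 4.46 CPM, stood out in that same library. Mix 15 also held libraries of older females, and mix 19 and mix 21 held female libraries too. The source of these reads was not tested. PH 1 therefore carries transcripts that go against its label. The mitosis, acute phase, stress response, male-biased and female-biased lists are given without it and within mix 21 as well.

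The hepatocyte label was borne out by its markers. The sum of the 11 tested defining hepatocyte genes was 44258, 51124 and 45169 CPM after PH and 38801, 47348 and 44025 CPM after sham surgery. Albumin (Alb) was at 6840, 8587 and 8239 CPM in PH 1 to 3 and at 6124, 8682 and 7411 CPM in sham 1 to 3. The transcription factor Hnf4a was at 335, 301 and 316 CPM against 325, 437 and 305 CPM. None of the 11 was called, and their median difference was -0.04 on the log2 scale.

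A gene is said to be called, or to have risen or fallen, when edgeR's quasi-likelihood test gave a Benjamini-Hochberg adjusted p under 0.1 and the difference was at least 2-fold. The study states no limits but ran the iDEP tool at its defaults, which these limits are taken to be. At 96 h, 265 genes were called higher after PH, 2.4% of those tested, and 163 were called lower, 1.48%. These 2 shares are the ones to set beside every list count below for YM at 96 h. The median log2 difference over all genes was -0.0085, and 2033 genes had an unadjusted p under 0.05. Within mix 21 alone, with 2 libraries an arm, 176 genes were called higher and 101 lower. Of the 428 genes called with the 6 libraries, 226 were called there too. Those 4 libraries are part of the 6, so this is no independent check. Without PH 1 the counts were 218 and 107. With 3 libraries an arm, the smallest two-sided p of an exact permutation of single values is 0.1, so every test below comes from the fit across genes. In bulk RNA, a change in the share of a cell type and a change in the RNA of each cell cannot be told apart. The log2 differences below are PH minus sham. The SE after each ± was derived from the test, as the absolute difference divided by the square root of its F statistic, and is not a separate estimate of spread.

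**Figure D1:**
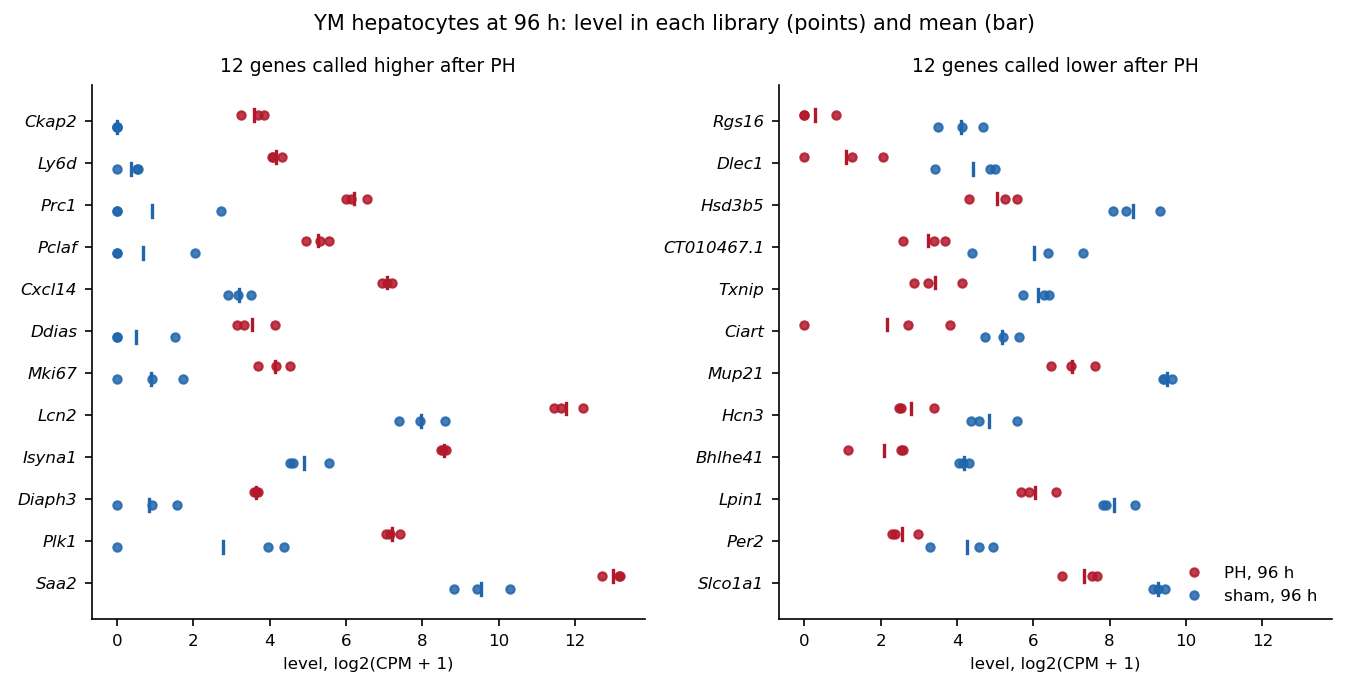
Level of the 12 genes called higher and the 12 called lower after PH with the largest log2 difference whose libraries do not overlap, in YM at 96 h, as log2(CPM + 1). Each point is a library (red PH, blue sham, 3 each) and each bar the group mean. Cxcl14 sat at 122 to 146 CPM after PH and at 6.51 to 10.4 CPM after sham surgery, and Mup21 at 87.1 to 194 CPM against 678 to 798 CPM.

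Mitotic genes formed the largest group of calls. Of the 71 tested members of the mitosis and cytokinesis list, 30 rose and none fell after PH, against 2.4% of all genes called higher. The difference lay above 0 for 68 of the 71, and its median was 2.19 on the log2 scale, or 1.85 with genes absent from the sham libraries set at their lower bound. The list summed to 1399, 1449 and 1234 CPM after PH and to 756, 739 and 768 CPM after sham surgery. Every PH library was above every sham library. In sham 1, 31 of the 71 members were at 0.

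Prc1, which bundles the microtubules of the spindle midzone, was at 68.4, 92.7 and 62.6 CPM in PH 1 to 3 and at 0, 0 and 5.58 CPM in sham 1 to 3. The difference was 5.15 ± 0.79 with an adjusted p of 0.0015. The mitotic kinase Plk1 was at 141, 169 and 131 CPM against 0, 19.6 and 14.4 CPM, a difference of 3.58 ± 0.69. Topoisomerase Top2a, which untangles sister chromatids, was at 47, 63.2 and 65 CPM against 9.78, 5.35 and 7.91 CPM. It rose by 2.95 ± 0.37, with an adjusted p of 3.7e-05. Mki67, the proliferation marker that coats mitotic chromosomes, was at 22.4, 12 and 17 CPM against 0, 0.892 and 2.33 CPM and rose by 3.80 ± 0.70. In each of these 4 genes the lowest PH library exceeded the highest sham library at least several times over. Prc1, Plk1 and Mki67 were named among the largest differences on condition that their arms did not overlap.

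Other members had few or no counts in the sham libraries. Ckap2, a spindle protein and p53 target, was at 11.9, 8.43 and 13.5 CPM after PH and had no count in any sham library, which makes it at least 22.9-fold higher (floor of 3 counts over the sham group). The kinase Pbk was at 4.11, 1.81 and 4.36 CPM against no count, at least 7.12-fold higher. Tpx2, which activates Aurora A on the spindle, had 47 counts after PH and 1 after sham surgery. Anln, which anchors the contractile ring, was at 33.3 CPM in PH 1 and 30.9 CPM in PH 3 but at 0 in PH 2, so its call rested on those 2 libraries.

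The regulators of mitotic entry rose less clearly. Cdk1, the kinase that starts mitosis, was at 29.7, 34.3 and 28.5 CPM against 5.87, 5.35 and 5.58 CPM and rose by 2.44 ± 0.57. Its partner Ccnb2 was at 12.3, 6.62 and 10.7 CPM against 0, 1.78 and 3.26 CPM, a difference of 2.41 ± 0.74 with an adjusted p of 0.064. Ccna2 rose from 1.3, 0 and 0 CPM to 5.02, 3.61 and 3.96 CPM. Ccnb1 (2.23 ± 0.83, adjusted p = 0.13), Cdc20 (3.0 ± 1.06, adjusted p = 0.11), Aurka (0.87 ± 0.41, adjusted p = 0.26) and Foxm1, the factor that drives this programme (1.70 ± 0.93, adjusted p = 0.34), were not called. The count depends on the libraries and on the mix. Within mix 21, 17 members rose, without PH 1, 21, without sham 2, 19, and with the mix as a covariate, 9, and none fell in any of these. Ccnb2 was among the calls lost both ways.

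The promoters of 3 of the genes that rose are shown because the mitotic list was the largest group. Matches to the letters of its best known elements can be read in them. Each runs 5′ to 3′ over the 250 bases before the RefSeq start of the gene (GRCm38.p6), with the CHR element TTTGAA and the CCAAT box, or their reverse complements, in capitals. They lie at chr7:135716380-135716629 on the minus strand for Mki67, at chr10:69352913-69353162 on the minus strand for Cdk1 and at chr9:70421555-70421804 on the minus strand for Ccnb2.
Mki67: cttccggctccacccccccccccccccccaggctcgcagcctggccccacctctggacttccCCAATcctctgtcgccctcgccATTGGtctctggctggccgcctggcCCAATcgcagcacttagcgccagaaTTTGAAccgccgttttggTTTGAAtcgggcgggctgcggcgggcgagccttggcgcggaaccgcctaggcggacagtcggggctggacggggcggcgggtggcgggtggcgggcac
Cdk1: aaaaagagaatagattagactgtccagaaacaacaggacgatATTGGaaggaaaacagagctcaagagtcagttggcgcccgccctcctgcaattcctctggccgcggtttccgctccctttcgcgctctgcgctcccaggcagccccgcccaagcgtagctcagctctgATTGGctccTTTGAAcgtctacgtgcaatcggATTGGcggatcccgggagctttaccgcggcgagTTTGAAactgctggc
Ccnb2: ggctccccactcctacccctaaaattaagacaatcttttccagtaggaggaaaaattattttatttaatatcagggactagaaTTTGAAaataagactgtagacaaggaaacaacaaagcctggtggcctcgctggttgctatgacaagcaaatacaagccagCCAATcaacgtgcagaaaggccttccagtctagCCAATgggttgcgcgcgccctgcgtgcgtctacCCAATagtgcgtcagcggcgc

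The CHR of Mki67 was found 98 and 116 bases before the start, and its nearest CCAAT box 141 bases before it. In Ccnb2 the order was reversed. Its only CHR match lay 167 bases before the start, and its farthest CCAAT box 87 bases before it. Of the 30 mitotic genes that rose, 24 had an entry in the promoter table, which is not complete. Both elements were present in 9 of the 24 (37.5%), against 4.2% of the 7896 tested genes with an entry and 5.76% of all 27025 promoters. The 9 were Mki67, Top2a, Cdk1, Ccnb2, Ckap2, Ckap2l, Smc2, Ncapd2 and Cdkn3. Over the 59 mitotic members with an entry, called or not, the share was 35.6%. The CCAAT box alone was present in 17 of the 24 (70.8%) against 37% of tested genes, and an E2F site (TTTGGCGC, TTTCGCGC, TTTCCCGC or TTTGCCGC) in 3 of 24 (12.5%) against 3.62%. A match is a stretch of letters on either strand and says nothing about binding.

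DNA replication genes did not share this rise. Of 43 members tested, Mcm2 and Asf1b (4.65%) rose and Mcm10 (2.33%) fell, with a median difference of 0.10. Over all genes the shares were 2.4% and 1.48%. The list summed to 495, 438 and 501 CPM after PH and 531, 442 and 543 CPM after sham surgery, and the arms overlapped. Pcna, the sliding clamp of the polymerases, was at 37.4, 34.3 and 44.4 CPM against 40.4, 37.5 and 31.2 CPM. Rrm2, the subunit of ribonucleotide reductase made in S phase, was at 10, 6.62 and 11.5 CPM against 9.78, 26.8 and 11.2 CPM. Mcm5, of the replicative helicase, was at 2.28, 1.81 and 2.38 CPM against 1.3, 0.892 and 1.4 CPM (adjusted p = 0.51). None of these 3 was called. Asf1b, a histone chaperone that serves new chromatin, was at 14.1, 21.1 and 12.7 CPM against 8.48, 3.57 and 1.86 CPM and rose by 1.85 ± 0.45. Pclaf, a PCNA-binding protein outside the list, was at 39.2, 45.7 and 30.1 CPM against 0, 3.12 and 0 CPM.

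Among 25 cell cycle regulators, 3 rose (12%, against 2.4% of all genes called higher) and none fell, and all 3 restrain the cycle. Cdkn1a, the p21 inhibitor, was at 112, 232 and 112 CPM against 26.7, 31.2 and 12.6 CPM, a difference of 2.68 ± 0.71 with an adjusted p of 0.036. The inhibitor Cdkn2c (p18) was at 45.2, 39.1 and 45.2 CPM against 18.3, 11.6 and 22.3 CPM and rose by 1.32 ± 0.22. Rbl1 (p107), the third, had an adjusted p of 0.096. Cyclin D1 (Ccnd1) was at 59.3, 87.3 and 54.7 CPM against 40.4, 29.4 and 62.4 CPM and was not called. Within mix 21, Cdkn2c alone of the 3 was called. The list also held only 1 call without PH 2 and 1 with a replicate block.

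Of 17 p53 targets tested, Ckap2, Cdkn1a, Bbc3 and Gdf15 rose and none fell, against 2.4% of all genes called higher, with a median difference of 0.55. The count fell to 2 without PH 2, with the mix as a covariate and with a replicate block. Bbc3, which encodes the pro-apoptotic PUMA, was at 17.3, 12 and 20.6 CPM against 5.87, 5.8 and 4.19 CPM and rose by 1.68 ± 0.36. The stress cytokine Gdf15 was at 37.9, 87.9 and 79.2 CPM against 34.6, 11.6 and 30.7 CPM. Its PH 1 library was close to the highest sham library. The p53 feedback gene Mdm2 was at 34.2, 28.9 and 47.9 CPM against 37.2, 27.7 and 40.9 CPM and was not called.

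**Figure D2:**
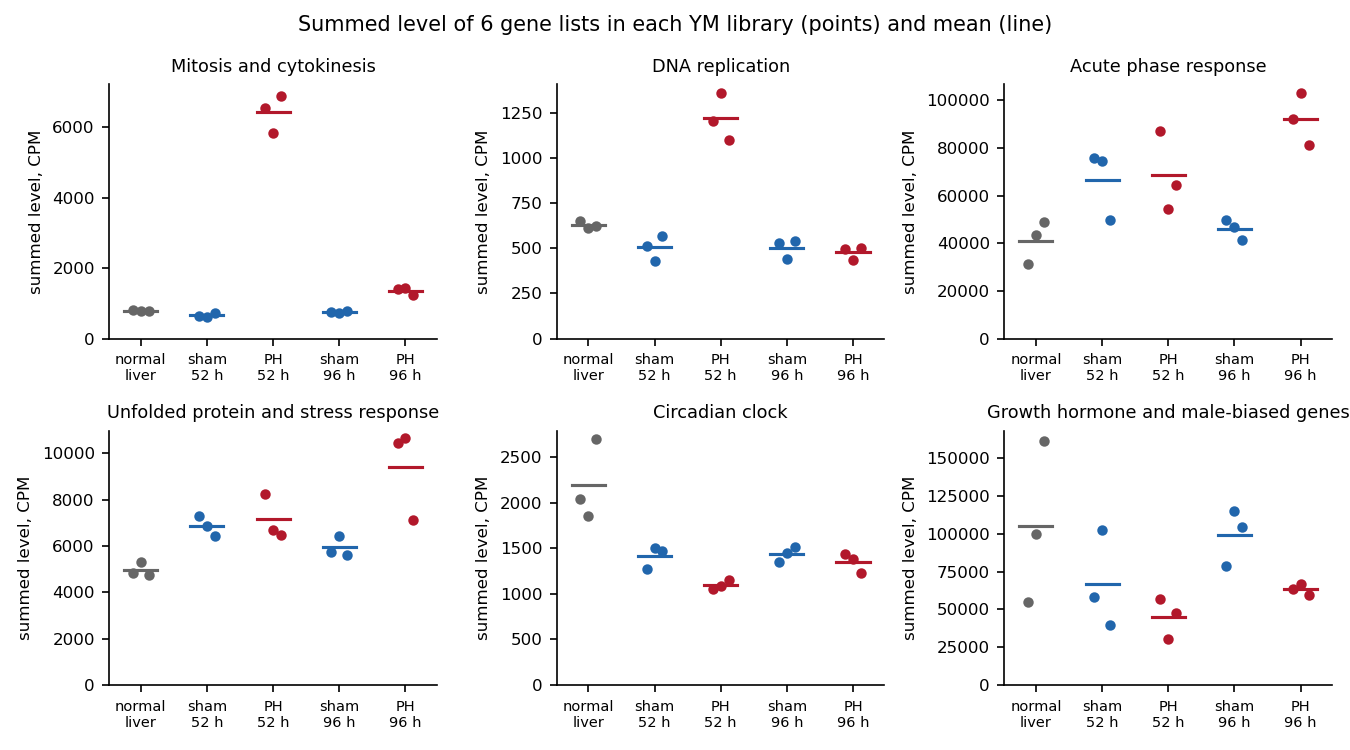
Summed CPM of 6 gene lists in each YM library (points, 3 per group) with the group mean (line), for NL, sham at 52 h, PH at 52 h, sham at 96 h and PH at 96 h. The mitotic sum was 1234 to 1449 CPM in PH libraries at 96 h and 5843 to 6904 CPM at 52 h, while the acute phase sum was 81288 to 103012 CPM in PH and 41519 to 49553 CPM in sham libraries at 96 h.

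The acute phase response was the next largest group. Of 41 members tested, 13 rose and none fell, against 2.4% of all genes called higher, and the median difference was 0.70. The list summed to 92021, 103012 and 81288 CPM after PH and to 49553, 46943 and 41519 CPM after sham surgery. Every PH library was above every sham library. Within mix 21, 14 members rose and none fell, and without PH 1, 14 rose.

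Saa2, a serum amyloid A that binds lipoproteins in inflammation, was at 9189, 9056 and 6633 CPM against 1249, 695 and 457 CPM, a 10.4-fold difference (3.37 ± 0.67, adjusted p = 0.0048). Saa1 was at 10992, 9850 and 7400 CPM against 2612, 1923 and 1314 CPM and rose by 2.27 ± 0.55. The 2 genes are near copies of each other, and 3′ counting could divide their reads. Lcn2, which starves bacteria of iron, was at 3156, 4707 and 2797 CPM against 382, 243 and 167 CPM, a 13.5-fold difference (3.76 ± 0.61). Saa2 and Lcn2 were the only calls of the list past 10-fold.

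The carrier proteins and opsonins rose less. Orm3, an orosomucoid of a family whose copies may share reads, was at 1142, 1170 and 829 CPM against 305, 251 and 205 CPM (2.05 ± 0.40), and Orm1 and Orm2 rose by 1.44 ± 0.27 and 1.47 ± 0.30. Apcs, serum amyloid P, was at 383, 406 and 348 CPM against 123, 61.1 and 76.3 CPM (2.14 ± 0.40). Haptoglobin (Hp), which clears free haemoglobin, was at 4487, 4628 and 3630 CPM against 1904, 1977 and 1521 CPM (1.24 ± 0.24). Lbp, which presents lipopolysaccharide, rose by 1.32 ± 0.23 and the hepatokine Fgl1 by 1.12 ± 0.22. Hemopexin (Hpx), metallothionein Mt2 and Tifa were the other calls.

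Well-known members without a call were the C-reactive protein gene Crp, at 1756, 2355 and 1568 CPM against 1710, 1647 and 1554 CPM, and the iron hormone Hamp, at 918, 1534 and 1579 CPM against 2186, 1898 and 1046 CPM. The feedback inhibitor Socs3 was at 35.6, 37.9 and 79.2 CPM against 25.4, 16.5 and 25.6 CPM (1.20 ± 0.55, adjusted p = 0.25). Serpina3n (0.81 ± 0.25) and Itih4 (0.67 ± 0.20) had adjusted p of 0.062 and 0.053 but did not reach 2-fold.

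The promoters of Saa2 and Lcn2, the leading acute phase genes with an entry, each held 1 match to TTGCNNAA, a C/EBP consensus, shown in capitals. They lie at chr7:46751583-46751832 on the plus strand for Saa2 and at chr2:32387740-32387989 on the minus strand for Lcn2.
Saa2: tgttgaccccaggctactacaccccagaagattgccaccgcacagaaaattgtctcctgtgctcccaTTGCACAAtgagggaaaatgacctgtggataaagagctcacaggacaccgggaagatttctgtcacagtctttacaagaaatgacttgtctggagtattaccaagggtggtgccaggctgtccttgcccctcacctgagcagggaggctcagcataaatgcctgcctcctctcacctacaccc
Lcn2: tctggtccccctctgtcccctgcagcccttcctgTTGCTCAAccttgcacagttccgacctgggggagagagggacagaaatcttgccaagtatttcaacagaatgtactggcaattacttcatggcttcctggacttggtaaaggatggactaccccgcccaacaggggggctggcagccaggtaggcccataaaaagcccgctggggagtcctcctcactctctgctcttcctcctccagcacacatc

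The match lay 183 bases before the start of Saa2 and 216 bases before that of Lcn2. Only 9 of the 13 genes that rose had an entry. This is under 80%, so the share for the genes that rose is void as a check and is given as a count, 7 of 9. Over the 33 tested members with an entry it was 45.5%, against 7.69% of tested genes. The STAT consensus TTCCNGGAA was found in none of the 9 and in 0.963% of tested genes.

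Genes of the unfolded protein and integrated stress response formed a smaller group in which the PH libraries differed among themselves. Of 36 members tested, 7 rose and none fell, against 2.4% of all genes called higher, with a median of 0.64. The sum was 10453, 10660 and 7119 CPM after PH and 5754, 6436 and 5612 CPM after sham surgery. PH 3 was the lowest PH library. Creld2, an endoplasmic reticulum (ER) chaperone, was at 385, 395 and 79.6 CPM against 63.9, 95 and 90.7 CPM, so that PH 3 lay within the sham range. Manf, an ER stress-induced secreted factor, was at 330, 297 and 105 CPM against 87.4, 77.6 and 149 CPM, with the same overlap. For Sdf2l1, an ER co-chaperone, the arms were apart, at 132, 82.5 and 54.7 CPM against 22.2, 27.2 and 30.2 CPM (1.74 ± 0.37, adjusted p = 0.0069).

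The disulfide isomerase Pdia4 was at 51.5, 36.1 and 34.1 CPM against 17, 19.2 and 19.1 CPM. Ddit3 (CHOP) was at 9.12, 16.3 and 7.92 CPM against 5.22, 3.12 and 2.79 CPM, and asparagine synthetase Asns, an ATF4 target, at 7.3, 9.63 and 12.7 CPM against 1.96, 1.34 and 2.79 CPM. Hspa1a, a cytosolic heat shock protein with the near-identical copy Hspa1b, was at 51.1, 60.8 and 84 CPM against 15, 14.3 and 12.6 CPM. The main ER chaperone Hspa5 was at 2759, 2701 and 1219 CPM against 992, 1400 and 1023 CPM (0.97 ± 0.28, adjusted p = 0.043), short of 2-fold. None of the list was called within mix 21, where PH 3 is 1 of 2 PH libraries, or with the mix as a covariate, and 3 rose without PH 1, PH 2, sham 1 or sham 2. An ER stress element (CCAAT and CCACG spaced by 9 bases) was present in 7 of the 32 members with a promoter entry (21.9%) against 0.19% of tested genes. Of the 6 genes that rose and had an entry, 1 held it, Creld2.

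Of 41 cytoskeletal genes, 9 rose and none fell, against 2.4% of all genes called higher, and the median was 0.60. The keratins Krt8 and Krt18, which pair into the filaments of hepatocytes, were at 390, 345 and 463 CPM against 131, 155 and 129 CPM and at 339, 371 and 289 CPM against 135, 106 and 108 CPM. They rose by 1.53 ± 0.18 and 1.52 ± 0.19. The actin-binding Tagln2 was at 89.4, 110 and 89.9 CPM against 30, 18.7 and 23.3 CPM (2.02 ± 0.25), and the calcium-dependent membrane protein Anxa2 at 29.7, 33.7 and 40 CPM against 11.1, 8.47 and 8.38 CPM. S100a11, Tubb6, Tuba1a, Marcksl1 and Lgals1 were the other calls. Within mix 21, 7 of the list rose, and with the mix as a covariate, 5.

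Several of the strongest differences belonged to none of these lists. Cxcl14, a chemokine, was at 122, 134 and 146 CPM against 10.4, 8.03 and 6.51 CPM, a 16.3-fold difference (4.02 ± 0.30) with the smallest adjusted p of all genes, 1.5e-09. Isyna1, which makes inositol from glucose 6-phosphate, was at 391, 361 and 373 CPM against 45.6, 22.3 and 23.3 CPM (3.66 ± 0.57). Lipoprotein lipase (Lpl), nearly silent in resting adult hepatocytes, was at 168, 117 and 185 CPM against 26.7, 16.5 and 23.3 CPM (2.84 ± 0.28, adjusted p = 1e-06). These 3 genes had PH levels well clear of the sham levels, and Cxcl14 and Isyna1 varied little among PH libraries. Cxcl14 and Isyna1 were named on condition that their arms did not overlap.

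Osteopontin (Spp1), a secreted matrix protein counted here among YAP targets, fetal genes and cholangiocyte markers, was at 38.3, 51.2 and 70.9 CPM against 9.13, 4.46 and 4.65 CPM (3.19 ± 0.39). It was the single call of the 16 YAP targets tested, and it and Scd2 were the calls of the 11 fetal liver genes. Ly6d, a membrane protein of the Ly6 family, had 109 counts after PH and 2 after sham surgery, a ratio of 50.6 with an exact interval of 13.7 to 423 that covers counting error only. Ddias, a DNA damage-induced apoptosis suppressor, was at 9.12, 7.82 and 16.6 CPM against 0, 0 and 1.86 CPM, and the formin Diaph3 at 11.4, 12 and 11.1 CPM against 1.96, 0.892 and 0 CPM.

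The largest group of genes that fell was that of growth hormone-dependent and male-biased genes. Of 35 tested, 6 fell and none rose, against 1.48% of all genes called lower, and the median was -0.64. The list summed to 63534, 67076 and 59806 CPM after PH and to 78488, 115278 and 104293 CPM after sham surgery. Hsd3b5, a male-specific steroid reductase, was at 37.4, 46.3 and 19 CPM against 271, 341 and 633 CPM, 12.3-fold lower (-3.62 ± 0.57, adjusted p = 0.00093). The major urinary protein gene Mup21 was at 194, 126 and 87.1 CPM against 691, 678 and 798 CPM (-2.41 ± 0.30, adjusted p = 3.7e-05). Reads of this family may be shared among its copies. The organic anion uptake carrier Slco1a1 was at 202, 185 and 107 CPM against 612, 696 and 558 CPM (-1.92 ± 0.50).

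Socs2, the growth hormone feedback inhibitor, was at 50.6, 44.5 and 32.5 CPM against 108, 61.1 and 197 CPM (adjusted p = 0.09). Cyp7b1, an oxysterol hydroxylase, was at 383, 216 and 213 CPM against 398, 631 and 683 CPM, with PH 1 near sham 1. The glucuronosyltransferase Ugt2b1 was at 382, 409 and 554 CPM against 814, 1006 and 994 CPM. Igf1, also under growth hormone, was at 703, 804 and 710 CPM against 750, 782 and 735 CPM and was not called. Within mix 21, 5 of the list fell, without PH 1 also 5, and 3 without PH 2 or with a replicate block.

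Of 39 female-biased genes, only Lpl rose and none fell. Their median difference was 0.53 with all 6 libraries, -0.04 without PH 1 and -0.11 within mix 21, so its sign rested on the library that also held Xist, A1bg and Sult2a1 reads.

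Of 22 clock genes, 4 fell and 1 rose, against 1.48% and 2.4% of all genes, with a median of -0.71. Within mix 21, 3 fell and none rose, without sham 2, 2 fell, and with the mix as a covariate, 1 fell. Ciart, a repressor of the clock, was at 13.2, 0 and 5.54 CPM against 25.4, 48.6 and 35.8 CPM (-2.47 ± 0.71, adjusted p = 0.053). Bhlhe41 (DEC2) was at 5.02, 1.2 and 4.75 CPM against 18.9, 15.6 and 16.8 CPM (-2.11 ± 0.43), and Per2 at 6.84, 4.21 and 3.96 CPM against 22.8, 29.9 and 8.84 CPM (-2.01 ± 0.41). In all 3 the arms were apart, but that was a condition for naming them among the largest differences. The output factor Hlf fell by 1.10, and its antagonist Nfil3, at 104, 264 and 128 CPM against 62.6, 58.4 and 33 CPM, rose by 1.68 ± 0.50.

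The core clock genes were less clear. Arntl was at 3.19, 4.82 and 4.36 CPM against 1.3, 1.34 and 0.465 CPM (adjusted p = 0.2), Dbp at 22.4, 1.2 and 9.11 CPM against 28.7, 25.9 and 54.4 CPM (adjusted p = 0.23), and Nr1d1 at 315, 169 and 247 CPM against 165, 152 and 351 CPM. The NL libraries had 88.1, 57.2 and 152 CPM of Dbp. Surgery was done between lights-on and noon, so that 96 h after it falls in the same part of the day. The hour at which each liver was taken is not given in the sources used here, and the part of such hours in these differences was not tested. Rgs16, a regulator of G-protein signalling that cycles with feeding in liver, had the largest fall of the genes named, from 10.4, 16.5 and 24.7 CPM after sham surgery to 0, 0 and 0.792 CPM after PH.

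The promoters of the 2 genes with the clock element CACGTG, the E-box bound by CLOCK and BMAL1, among the clock genes that fell are shown with the match in capitals. They lie at chr3:95882229-95882478 on the minus strand for Ciart and at chr6:145865421-145865670 on the minus strand for Bhlhe41.
Ciart: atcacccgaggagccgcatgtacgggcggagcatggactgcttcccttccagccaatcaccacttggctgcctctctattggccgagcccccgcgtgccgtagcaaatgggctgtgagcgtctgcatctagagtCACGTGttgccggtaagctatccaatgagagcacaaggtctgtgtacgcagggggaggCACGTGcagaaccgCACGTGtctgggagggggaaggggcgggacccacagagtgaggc
Bhlhe41: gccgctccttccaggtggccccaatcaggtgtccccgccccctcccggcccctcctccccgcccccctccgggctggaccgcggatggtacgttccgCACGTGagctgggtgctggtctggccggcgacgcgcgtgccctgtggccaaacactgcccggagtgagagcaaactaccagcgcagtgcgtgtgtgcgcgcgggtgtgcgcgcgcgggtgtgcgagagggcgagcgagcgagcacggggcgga

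Ciart held 3 matches, 44 to 116 bases before the start at their first base, and Bhlhe41 held 1. Of the 4 clock genes that fell, 3 had an entry, under 80%, so only the counts are given. Over the 19 tested clock genes with an entry, 26.3% held the E-box, against 8.69% of tested genes. The D-box (TTATGTAA or TTACGTAA) was found in 1 of the 19 and in 0.735% of tested genes.

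In glucose metabolism, 4 of 35 genes (11.4%) fell and Pkm rose, against 1.48% of all genes called lower. Gys2, liver glycogen synthase, was at 41.5, 29.5 and 44 CPM against 102, 101 and 134 CPM (-1.54 ± 0.30), and Slc2a2, the glucose transporter GLUT2, at 169, 195 and 237 CPM against 410, 524 and 438 CPM (-1.19 ± 0.25). The glycolytic activator Pfkfb3 and pyruvate kinase Pklr fell with adjusted p of 0.026 and 0.075, and the muscle-type pyruvate kinase Pkm, at 52.9, 54.2 and 60.6 CPM against 28, 22.3 and 33 CPM, rose by 1.01 ± 0.30. No gene of the list rose within mix 21, with the mix as a covariate, with library totals, or without PH 2, PH 3, sham 1 or sham 2. Within mix 21, 4 fell, with the mix as a covariate, 3, and without sham 3, 2. Pck1, of gluconeogenesis, was at 1236, 1198 and 1552 CPM against 1223, 1473 and 1314 CPM. Txnip, a glucose-induced brake on glucose uptake that no list held, was at 6.39, 8.43 and 16.6 CPM against 52.2, 83.4 and 76.3 CPM, 6.56-fold lower (-2.71 ± 0.43).

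In fatty acid and triglyceride synthesis, 4 of 30 (13.3%) fell and Scd2 rose, against the same 1.48%, with a median of -0.40. The number that fell was 2 without PH 1, 1 without sham 2 and 2 with the mix as a covariate or a replicate block. Lpin1, the phosphatidate phosphatase that also acts in the nucleus, was at 50.2, 58.4 and 95.8 CPM against 224, 401 and 238 CPM (-2.07 ± 0.40). Thrsp, a lipogenic thyroid hormone target, was at 90.3, 135 and 80 CPM against 250, 461 and 313 CPM, and the elongase Elovl6 at 26.5, 30.1 and 29.7 CPM against 53.5, 76.3 and 43.3 CPM. Fatty acid synthase (Fasn) was at 95.8, 157 and 116 CPM against 135, 191 and 146 CPM and was not called. In cholesterol synthesis, Stard4 and Scap fell out of 27, and in fatty acid oxidation Fabp1 fell and Cyp4a31 rose out of 52.

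None of 41 xenobiotic cytochromes P450 was called (median -0.20). Of 54 phase II genes, Sult1b1, Sult2a8, Sult5a1 and Ugt2b1 (7.41%) fell, against 1.48% of all genes, but none fell without PH 2 and 2 fell without PH 1, sham 2 or sham 3. Of 15 bile acid synthesis genes Cyp7b1 fell, and of 20 transporters Slco1a1 fell. The rate-limiting enzyme Cyp7a1 was at 47.4, 35.5 and 73.3 CPM against 143, 118 and 235 CPM, arms that did not overlap, but its difference of -1.65 ± 0.69 had an adjusted p of 0.2. The bile acid-induced repressor Nr0b2 (SHP) was the single call of 33 hepatocyte transcription factors, at 55.2, 53.6 and 62.6 CPM against 22.8, 34.8 and 13 CPM.

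Of 36 periportal genes none was called, with a median of -0.01. Of 33 pericentral genes, 3 transporters (9.09%) rose, against 2.4% of all genes called higher. The neutral amino acid carrier Slc1a4 was at 18.7, 13.2 and 15.4 CPM against 5.22, 4.01 and 2.79 CPM, the dicarboxylate carrier Slc13a3 at 17.3, 17.5 and 21.4 CPM against 6.52, 4.91 and 3.26 CPM, and the ammonium channel Rhbg at 11.4, 16.9 and 14.3 CPM against 7.17, 7.58 and 5.58 CPM. The zonal landmarks Glul, at 174, 231 and 233 CPM against 192, 199 and 244 CPM, and Cyp2f2, at 4561, 6700 and 5959 CPM against 4889, 6873 and 5692 CPM, were not called. None of 44 ribosome biogenesis genes was called. Of 34 growth factor ligands and receptors, the FGF co-receptor Klb and the leukaemia inhibitory factor receptor Lifr fell, by 1.39 and 1.07. Of 55 urea cycle and amino acid genes, Asns rose and Csad fell, and of 71 secreted plasma proteins Mup21 and Mup6 fell.

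The preparations also held RNA of other liver cells, and some of it moved with surgery. The 18 tested macrophage markers summed to 922, 1119 and 1014 CPM after PH and 683, 516 and 801 CPM after sham surgery, and Marco, a scavenger receptor, and Cd5l rose. Marco was at 18.7, 25.3 and 38.8 CPM against 5.87, 4.46 and 4.19 CPM. Clec4f, the defining Kupffer cell lectin, was at 119, 132 and 141 CPM against 104, 83 and 131 CPM and was not called. The 16 stellate cell and fibroblast markers summed to 405, 450 and 480 CPM against 290, 314 and 306 CPM. Col3a1, at 70.3, 84.3 and 108 CPM against 18.3, 20.5 and 19.1 CPM, Col1a2, Sparc and Ngfr rose, and Ecm1 fell.

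The 18 sinusoidal endothelial markers summed to 659, 803 and 815 CPM against 645, 705 and 736 CPM, with 1 call, Pecam1. The 4 cholangiocyte markers summed to 213, 252 and 250 CPM against 96.5, 93.7 and 116 CPM, and their call was Spp1, while Krt7 and Krt19 are not in the table analysed here. The 5 erythroid markers summed to 60.6 to 83.9 CPM against 73.7 to 93.7 CPM. By gene, 4 of the 5 differed above 0, with a median of 1.96 (0.83 within mix 21), and none was called. The 3 lymphocyte markers summed to 26.5 to 39.2 CPM against 18.1 to 25.4 CPM. No neutrophil marker of 10 was in the tested table. Mitotic, cytoskeletal, matrix and inflammatory genes are also used by these cells, and the part of these cells in the results was not tested.

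The next question was how the response at 96 h differs from that at 52 h in YM, near the height of cell division. At 52 h, 657 genes were called higher after PH (5.95%) and 404 lower (3.66%). Of the 265 genes that rose at 96 h, 98 (37.0%) had also risen at 52 h, which is 14.9% of the 52 h genes, and of the 163 that fell, 44 (27%, and 10.9% of the 52 h genes). The difference between the 2 responses, each against its own sham group, was tested with an interaction contrast. It was called higher at 96 h for 237 genes (2.15%) and lower for 346 (3.13%). The balance rested on single libraries, with 236 higher and 202 lower without sham 2, 226 and 213 without PH 1, 230 and 220 without PH 2, and 160 and 156 within mix 21.

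**Figure D3:**
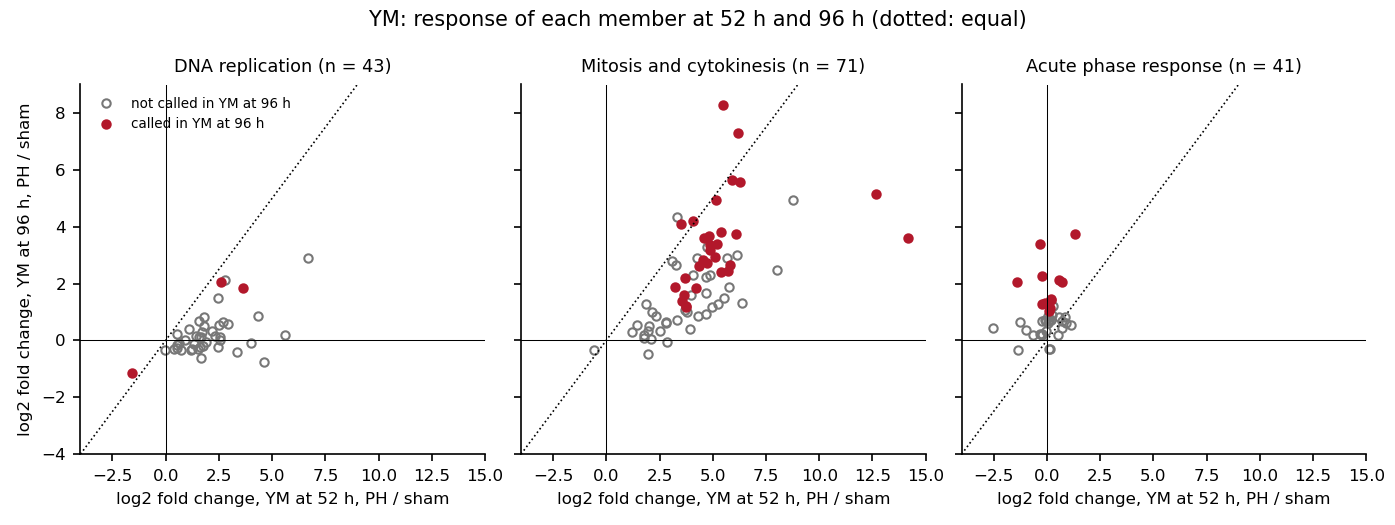
Log2 difference between PH and sham at 96 h (y axis) against that at 52 h (x axis) in YM, for each tested member of the DNA replication (43), mitosis (71) and acute phase (41) lists. Filled points were called at 96 h and the dotted line marks equal differences. Replication and mitosis members lie mostly below the line, and acute phase members mostly above it.

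Replication and mitosis were larger at 52 h. At that time 32 of 43 replication genes and 68 of 71 mitosis genes rose. The difference was called lower at 96 h for 18 replication genes and 23 mitosis genes and higher for none of either. Plk1 was at 1596, 1020 and 1341 CPM after PH at 52 h with no count in the sham libraries, against 131 to 169 CPM after PH at 96 h. Cdk1 was at 274, 215 and 339 CPM at 52 h, and its difference changed by -3.30 ± 0.90 (adjusted p = 0.043). Rrm2 was at 96.7, 76.1 and 67.7 CPM after PH at 52 h and at 6.62 to 11.5 CPM at 96 h, a change of -5.37 (adjusted p = 9.6e-06). Ccnd1 was at 123, 80 and 155 CPM at 52 h, and its difference was also lower at 96 h (adjusted p = 0.023).

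For some genes the change between times did not pass the test. Ckap2 was at 39.3, 32.2 and 37.2 CPM at 52 h and 8.43 to 13.5 CPM at 96 h, and Pclaf at 48.7, 50.6 and 26.6 CPM at 52 h and 30.1 to 45.7 CPM at 96 h. The adjusted p of the difference was 0.69 and 0.85. Cdkn1a was at 133, 198 and 105 CPM after PH at 52 h, and its difference did not pass the test between times either (-0.55 ± 1.06, adjusted p = 0.86).

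The acute phase genes went the other way. At 52 h, 1 of 41 rose and 4 fell, and the difference was called higher at 96 h for 10 (Saa1, Saa2, Saa4, Lcn2, Orm1, Orm2, Orm3, Lbp, Hp and Hamp2) and lower for none. For Saa2 the PH libraries at 52 h were at 4412, 2433 and 2289 CPM and the sham libraries at 6021, 3337 and 1914 CPM, so that sham levels at 52 h were as high as those after PH. At 96 h the sham level was 457 to 1249 CPM and the PH level 6633 to 9189 CPM. In NL it was at 66.9, 51.5 and 51.3 CPM, although those libraries all came from mix 7, so that mix and lack of surgery cannot be told apart. The test of the difference gave 3.68 ± 0.89 (adjusted p = 0.026). For Lcn2 the sham libraries were at 2226, 493 and 656 CPM at 52 h and at 167 to 382 CPM at 96 h, while the PH libraries were at 1809 to 4450 CPM at 52 h and at 2797 to 4707 CPM at 96 h.

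Other genes responded at 96 h and not, or in reverse, at 52 h. Cxcl14 was at 11, 13.7 and 10.6 CPM after PH at 52 h against 19.1, 1.41 and 9.21 CPM, and its difference was greater by 3.89 ± 0.50 at 96 h (adjusted p = 3.7e-05). Spp1 was at 3.93, 0.785 and 3.98 CPM after PH at 52 h against 16.6, 11.3 and 10.5 CPM, where it fell by 2.46, and the change between times was 5.65 ± 0.71 (adjusted p = 3.7e-05). Of the 265 genes called higher at 96 h, 9 were called lower at 52 h, among them Spp1, Orm3 and the citrate carrier Slc13a5. Of the 163 called lower at 96 h, 4 were called higher at 52 h. Over all genes tested, 3.66% were called lower and 5.95% higher at 52 h, so neither count stood above those shares. The difference was greater at 96 h also for Lpl (2.03 ± 0.39), Bbc3 (adjusted p = 0.0044) and Isyna1 (2.84 ± 0.77). Txnip was at 28.3, 17.3 and 15.9 CPM after PH at 52 h against 27.4, 21.1 and 33.5 CPM, and its change was -2.24 ± 0.63 (adjusted p = 0.049). No clock gene differed, and of the male-biased genes only Nudt7 did.

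The same comparison in VOM and YF at 96 h shows which of these differences were also found in other mice. In VOM, 511 genes were called higher (4.63%) and 240 lower (2.17%), and in YF 273 (2.47%) and 101 (0.914%). Of the genes that rose in YM, 113 (42.6%) rose in VOM, which is 22.1% of the VOM genes, and 96 (36.2%) rose in YF, 35.2% of the YF genes. Of those that fell, 39 (23.9%, and 16.2% of the VOM genes) fell in VOM and 20 (12.3%, and 19.8% of the YF genes) in YF. Cxcl14 rose in both, by 3.73 ± 0.38 in VOM and 3.96 ± 0.49 in YF, as did Isyna1, Lpl, Saa2, Orm3 and Apcs.

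**Figure D4:**
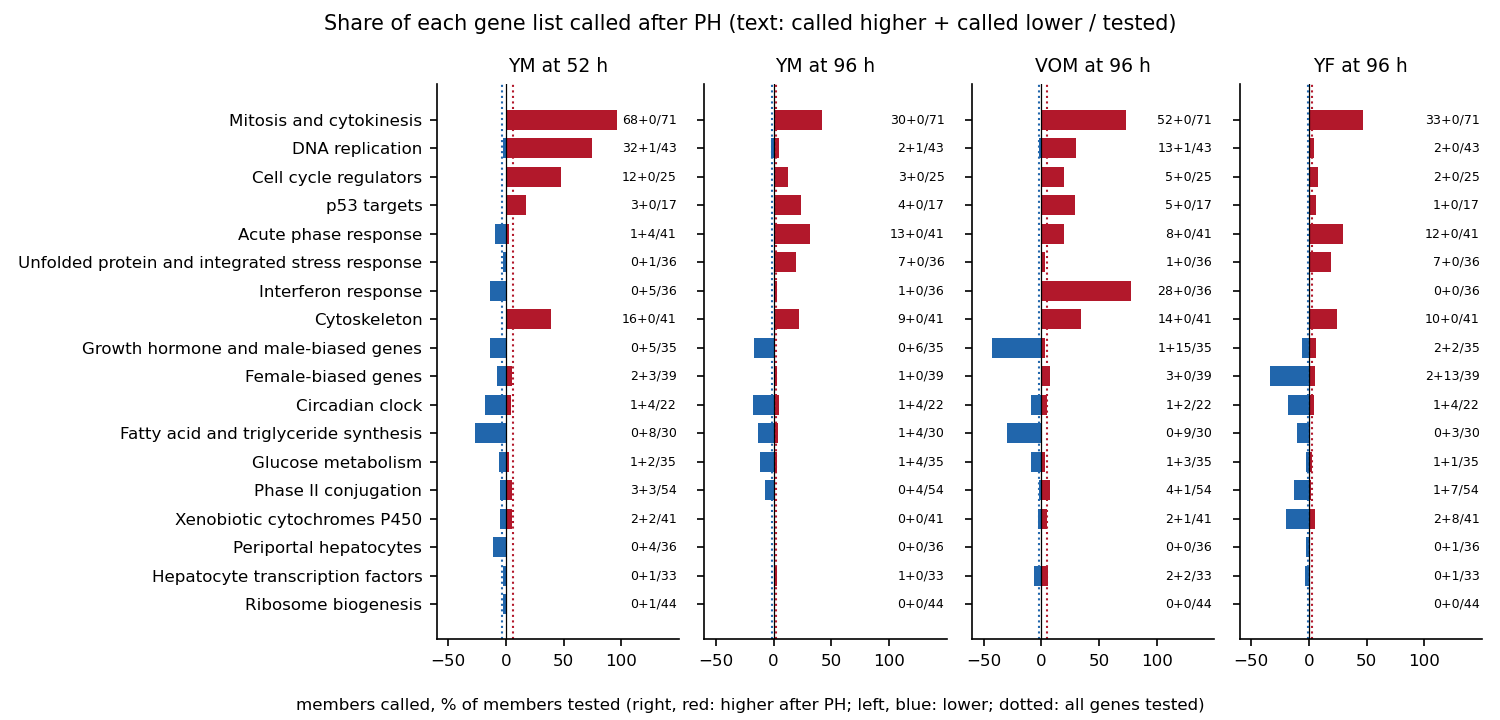
Share of the tested members of 18 gene lists called higher (red, right) and lower (blue, left) after PH, in % of members, for YM at 52 h, YM at 96 h, VOM at 96 h and YF at 96 h. Numbers give called higher + called lower / tested and dotted lines give the share over all genes. Mitosis stood at 68, 30, 52 and 33 of 71 members called higher, and the interferon response at 28 of 36 in VOM against 1 in YM.

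Tested directly, the difference between PH and sham was called higher in VOM than in YM for 123 genes (1.11%) and lower for 35 (0.317%). With library totals and no TMM factor the split was 160 and 9, and that of VOM itself 730 and 143. Interferon-response genes made up 17 of the 123, of 36 tested. Ifit1 was at 39.7, 33.1 and 30.1 CPM after PH in YM against 37.2, 30.3 and 39.1 CPM after sham surgery, with a difference of -0.05 ± 0.18, while VOM gave a difference of 4.21. In YM at 96 h only Zbp1, a sensor of nucleic acids, rose on that list, at 16, 15 and 16.2 CPM against 5.87, 6.24 and 4.19 CPM. Within YM, 5 interferon genes had fallen at 52 h, Ifit1 among them.

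Of the mitosis list, 52 members rose in VOM and 30 in YM at 96 h, and the difference between ages was called for Ect2, Aurka, Cenpa and Spc25, all higher in VOM, and for Rrm2 among 43 replication genes. Aurka was not called in YM. For the acute phase list no member passed the test between VOM and YM or between YF and YM. The adjusted p for Saa2 was 0.48 and 0.81, and the difference of responses was -1.56 ± 0.87 and -1.05 ± 0.87, which neither separates the groups nor shows them alike. Txnip differed from VOM (2.54 ± 0.60, adjusted p = 0.049).

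**Figure D5:**
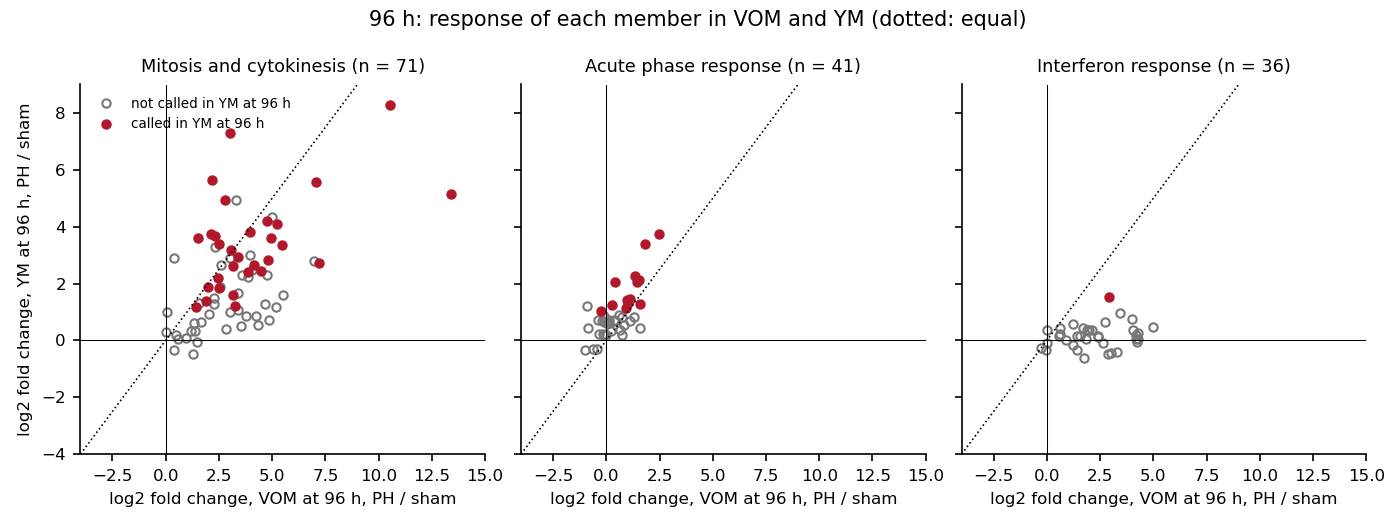
Log2 difference between PH and sham at 96 h in YM (y axis) against VOM (x axis) for each tested member of the mitosis (71), acute phase (41) and interferon (36) lists. Filled points were called in YM and the dotted line marks equal differences. Interferon members spread along the x axis near 0 in YM, with Zbp1 the single filled point.

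Between YF and YM only 2 genes were called higher (0.0181%) and 3 lower (0.0272%). Mitosis members rose in 33 of 71 cases in YF and 30 in YM, and no member of any list named here passed the test of the difference. That lack of calls does not show the responses alike. In YF, 13 of 39 female-biased genes (33.3%) and 8 of 41 xenobiotic cytochromes P450 (19.5%) fell, against 0.914% of all genes. None of either list fell in YM. The stress list rose in 7 of 36 in both, with Creld2, Manf, Pdia4 and Ddit3 on both lists of calls. Mup21, at 12.1 to 14.6 CPM after PH and 32.4 to 41.8 CPM after sham surgery in YF, fell there too.

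Some further falls had no list. Dlec1 was at 1.37, 0 and 3.17 CPM against 30.6, 28.1 and 9.77 CPM (-3.68 ± 0.70), yet at 1.28 to 6.28 CPM in the sham libraries at 52 h and 0.841 to 7.86 CPM in NL, below the 3 sham libraries at 96 h. The ion channel gene Hcn3 was at 4.56, 4.82 and 9.51 CPM against 19.6, 46.4 and 22.8 CPM, and NL at 25.3 to 48.5 CPM. CT010467.1, an rRNA gene at chr17:39846353-39848827 (GRCm38), was at 5.02, 9.63 and 11.9 CPM against 20.2, 82.5 and 157 CPM, a wide spread among the sham libraries.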

How the data were processed

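Hepatocyte RNA was sequenced from its 3′ end with unique molecular identifiers (UMIs). The deposited values are expected counts: per the paper's methods, the authors mapped reads to GRCm38 with celseq2, turned UMI counts into estimated transcript counts with a binomial correction, left out a few saturated genes and genes of low expression, and adjusted for batch with ComBat-Seq, whose batch variable is not given in the sources used here. The adjustment can move single libraries, zeros included. A genome label names a human build, which does not match the mouse gene identifiers, so the build of the methods was used.

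Expected counts were rounded to whole numbers (379 genes had a value that was not whole in the 6 libraries). Genes that reached 0.5 CPM (counts per 1000000 of the library) in 1 or more of the 27 libraries fitted were tested with edgeR 4.0.16 in R 4.3.3 (TMM, robust quasi-likelihood), with 9 groups of 3 and 18 residual degrees of freedom, so that all groups share the estimate of spread. Adjusted p-values are over all genes tested. The CPM levels and sums printed are scaled by each library's total times its TMM factor, which ran from 0.711 (NL 3) to 1.19 (PH 3 of VOM). The 0.5 CPM filter used totals alone. No replicate pair among the 27 libraries fitted agreed within sampling noise. In the run with all labelled libraries, NL libraries 4 and 5 differed by less than sampling noise (chi-square of 0.344 per degree of freedom) and were merged into 1. Alternatives were DESeq2 1.42.0, RLE or no scaling factor, other filters and thresholds, other sets of libraries, mix 21 alone, the mix as a covariate, a replicate block and each replicate left out. On simulated data for YM at 96 h (11044 genes), edgeR recovered 46% of genes changed 2-fold and 96% of those changed 4-fold and called 11 unchanged genes. A call itself needs an estimated change of at least 2-fold, so that threshold limits the 46% and it does not measure power. Only genes with a mean of at least 10 counts were changed, so genes near 0 in the sham libraries were not covered. Intervals and floors cover counting error only.

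The members and the gene lists were chosen with earlier results of these data known. Named genes were the 12 largest called differences in each direction whose libraries do not overlap (mean of at least 10 counts, no predicted genes or pseudogenes), the called and best known members of each list, the 4 largest differences between groups, and Xist and Y-linked genes as a check of the labels. Promoters came from the RefSeq table of GRCm38.p6.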

Additional observations from a re-analysis of the deposited data

Results flagged for a closer look

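The genes below were picked because the difference between PH and sham itself differed between groups in the interaction test (edgeR's quasi-likelihood test, adjusted over all genes). They are the genes of largest size with a mean of at least 10 counts.

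Between times in YM, the change from 52 h to 96 h was -10.56 ± 2.04 on the log2 scale for Plk1 (adjusted p = 0.0086), -6.66 ± 2.07 for the separase gene Espl1 (adjusted p = 0.07), 5.65 ± 0.71 for Spp1 (adjusted p = 3.71e-05) and -5.45 ± 0.99 for Cdca2, a mitotic exit protein (adjusted p = 0.0044). Plk1 had no count in the 52 h sham libraries, so the fitted size depends on the prior count. Cdca2 was at 461, 428 and 344 CPM after PH at 52 h and at 32.4, 40.9 and 37.6 CPM at 96 h, against 11.7, 11.6 and 11.2 CPM after sham surgery at 96 h.

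Between VOM and YM at 96 h, the difference was 8.14 ± 2.08 for the kinesin Kif18a (adjusted p = 0.082), 4.76 ± 1.15 for Dlec1 (adjusted p = 0.051), 4.50 ± 0.52 for the ubiquitin-like Isg15 (adjusted p = 5.55e-06) and 4.27 ± 1.10 for Cdca2 (adjusted p = 0.083). Kif18a was at 4.56, 0 and 7.92 CPM after PH and 5.22, 5.8 and 6.05 CPM after sham surgery in YM. Isg15 was at 11.4, 9.63 and 6.73 CPM against 5.87, 5.8 and 7.91 CPM in YM.

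Between YF and YM it was -2.56 ± 0.53 for the prostaglandin synthase Ptgds (adjusted p = 0.097), 1.77 ± 0.33 for the ethanolamine kinase Etnk1 (adjusted p = 0.045) and -1.37 ± 0.26 for Zfp444 (adjusted p = 0.045). Ptgds rose in YM, at 6.84, 9.03 and 19.8 CPM against 5.87, 5.8 and 5.12 CPM, and Etnk1 was at 53.8, 72.8 and 77.6 CPM against 111, 152 and 72.1 CPM.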

How the results depend on the processing

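The 428 genes called in YM at 96 h became 277 within mix 21 and 162 with the mix as a covariate, and 300 to 427 when each replicate was left out. With the mix as a covariate the calls were 693 against 1061 at 52 h, 347 against 751 in VOM, 121 against 374 in YF, 95 against 583 for the difference between times, 20 against 158 for VOM against YM, and 0 against 5 for YF against YM. Within mix 21 the difference between times gave 316 and that between VOM and YM 82. Fitting only the libraries compared gave 242 in YF and 0 for YF against YM, and all labelled libraries gave 688, 344 and 191 for YF, VOM against YM and YF against YM. An adjusted p under 0.05 with no fold minimum gave 83 for VOM against YM. For YF against YM, DESeq2 gave 17 and library totals with no TMM factor 3 (2 higher and 1 lower, against 2 and 3). Leaving out a replicate gave 76 to 448 in YF, 77 to 187 for VOM against YM and 0 to 30 for YF against YM; in YF the lowest came without sham replicate 1. Of the 124 named genes that were called in YM at 96 h, 47 kept the call in every alternative run. The call was lost for 68 with the mix as a covariate, 38 within mix 21, 37 without sham 2, 33 without PH 2 and 24 without PH 1. The sign of all 124 held, but they were chosen as called at 2-fold or more on these libraries. Genes named as not called were not recomputed under the alternatives. The cause was not tested. Depth limits genes with few sham counts.

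Replicate numbers did not pair the libraries: the deviations of same-numbered YM libraries at 96 h had correlations of -0.25, -0.13 and -0.095. With the replicate block, 351 genes were called in YM at 96 h (226 higher, 125 lower) and 385 for the difference between times.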
